A study of Rattus norvegicus with 24 samples.

Results

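The arrays described here are the 6 from untreated control rats, which give the baseline transcriptome of the rat cumulus-oocyte complex. A probe was counted as a member when its detection score was over 0.99 on all 6 control arrays. Of 21946 probes, 5295 (24.1%) were members, and 3796 of these carried a gene symbol and stood for 3749 of the 13161 genes named on the array (28.5%). The other 1499 member probes are unnamed here.

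The study hybridized 1 bead array per rat for 24 sexually mature female Sprague Dawley rats, 6 in each of 4 groups. The control group had no hormone, the GnRH group had gonadotropin-releasing hormone, the GnRH+eCG group had equine chorionic gonadotropin after it, and the GnRH+eCG+hCG group (the hCG group below) had human chorionic gonadotropin as well. In every group RNA from the complexes was isolated with a small-sample kit, amplified and labelled with biotin. How many complexes each rat gave, and the cycle stage of the untreated rats, do not appear in the labels. Control rats carry the numbers 1 to 3 and 13 to 15, since rat numbers run from 1 to 12 and from 13 to 24 with 3 rats of each group in either run. The labels do not say what the runs are.

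A cumulus-oocyte complex is an oocyte wrapped in several layers of cumulus granulosa cells. Gap junctions join the cumulus cells to each other and to the oocyte, and carry metabolites and cyclic nucleotides that hold the oocyte in meiotic arrest. The oocyte in turn secretes GDF9 and BMP15, which shape cumulus growth and steroid output. Its own stored maternal mRNA is set aside for the first divisions of the embryo.

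The control arrays did not stand equally close to each other. Between 25.1% (rat 3) and 37.8% (rat 1) of probes were detected. The median deposited signal split by rat-number run, at 194.9 to 224.1 on rats 1 to 3 and 151.2 to 160.5 on rats 13 to 15. Pairwise Pearson correlations over the members were 0.894 (rats 1 and 3) to 0.978 (rats 13 and 15). Rat 1 alone held 483 of the 679 named genes that were detected on exactly 1 control array. Rat 3 alone missed 592 of the 668 that were detected on exactly 5, and without rat 3 the rule gave 6161 members. Results that rest on rat 1, 2 or 3 are named as such below. The number of arrays limits the precision, and all spreads are SD over n = 6 rats on the log2 normalized scale unless stated.

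Most members were not particular to untreated rats. Of the 5295, 5175 were also detected on all 6 GnRH arrays, 5057 on all 6 GnRH+eCG arrays and 4753 on all 6 hCG arrays. On all 24 arrays 4640 were detected. Over all probes, 5778 (26.3%), 5509 (25.1%) and 5568 (25.4%) were detected on all 6 arrays of these groups, in the same order. At the edge of the rule, Ccn1 and Vegfa (a secreted matrix-associated protein and the vascular endothelial growth factor A) had a lowest score of 0.9903. Dusp1 and Lox, a protein phosphatase and a collagen cross-linking enzyme, had a lowest score of 0.98909 and fell outside. Mean levels of the 4 were 9.86 (Ccn1), 8.84 (Vegfa), 9.70 (Dusp1) and 9.31 (Lox), on either side of the median of 9.38 over the member genes. At these scores stood 217 and 162 named probes, and the 2 with the highest mean were taken from each. Their levels are therefore not those of the edge as a whole. Dusp1 ran from 7.71 on rat 3 to 12.69 on rat 2.

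The 20 brightest genes held 2 of the granulosa and cumulus list, Gja1 and Inhba, and otherwise came from many cell functions. Gja1, which encodes connexin 43 of the cumulus gap junctions, was first in the order of mean signal, with deposited signals of 22917.6, 23216.5, 29292.4, 29776.3, 34551.9 and 25842.9 on rats 1, 2, 3, 13, 14 and 15. The lowest value was on rat 1 and the highest on rat 14. Akr1c12, of the aldo-keto reductase family, came second with 29489.8, 31225.2, 20486.4, 26911.0, 16048.2 and 25876.2 in the same rat order. Here rat 14 was the lowest and rat 2 the highest. The order is one of probe signals, which depend on the probe as well as the transcript, so no ratio between genes is drawn from it.

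**Figure D1:**
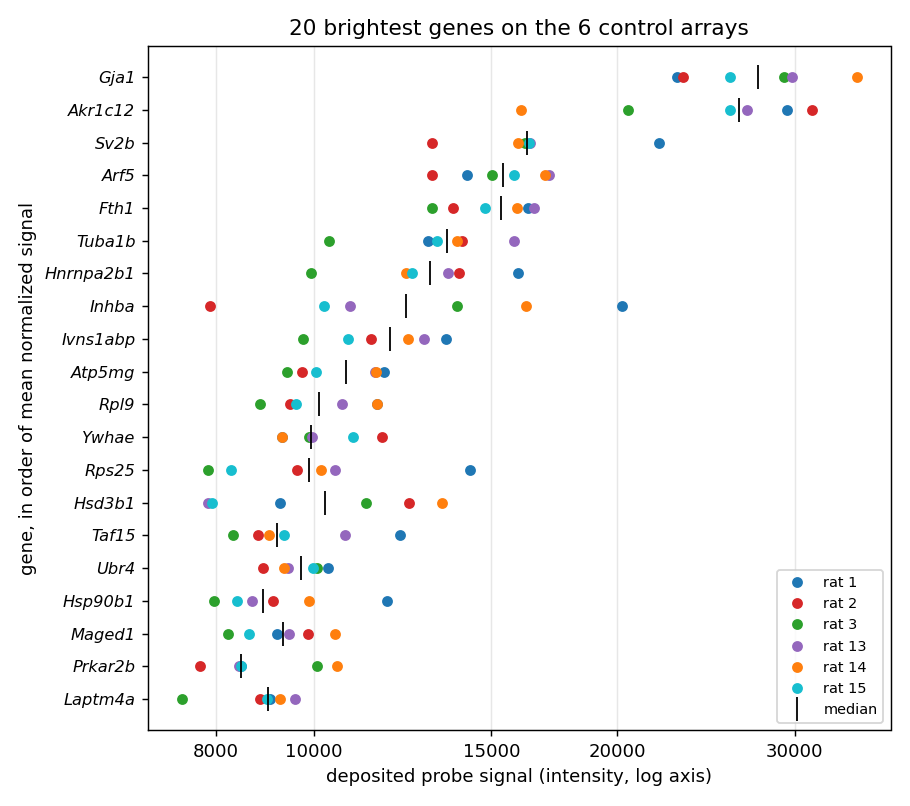
Deposited probe signal (intensity, log axis) of the 20 genes with the highest mean normalized signal, with 1 point per control rat and a bar at the median of the 6. The medians of Gja1 and Akr1c12 lie to the right of the other 18 medians, although single points overlap (Akr1c12 holds 16048.2 on rat 14 and Sv2b 22003.4 on rat 1). Inhba runs from 7888.5 on rat 2 to 20209.0 on rat 1.

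After these came Sv2b, a synaptic vesicle glycoprotein, Arf5, a small GTPase of membrane traffic, and Fth1, the ferritin heavy chain. Their median deposited signals were 16270.5, 15418.7 and 15341.5. Inhba, the beta A subunit of activin and inhibin A, stood eighth and had the widest normalized spread of the 20 brightest, at 13.56 ± 0.40. Its deposited signal was 7888.5 on rat 2, 10226.6 to 16250.7 on rats 3, 13, 14 and 15, and 20209.0 on rat 1. Hsd3b1, which makes progesterone from pregnenolone, ran from 7859.9 on rat 13 to 13395.6 on rat 14. Inha, the alpha subunit of the inhibins, ranked 34 with a deposited median of 7123.4.

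The rest of the 20 were genes of general cell functions: Tuba1b (alpha tubulin), Hnrnpa2b1 and Taf15 (RNA-binding proteins), Ivns1abp (a kelch-repeat protein), Atp5mg (a subunit of ATP synthase), Rpl9 and Rps25 (ribosomal proteins), Ywhae (a 14-3-3 protein), Ubr4 (a ubiquitin ligase), Hsp90b1 (an endoplasmic reticulum chaperone), Maged1 (a melanoma antigen family protein), Prkar2b (a regulatory subunit of protein kinase A) and Laptm4a (a lysosomal membrane protein). Their normalized means lay between 13.06 (Laptm4a) and 13.68 (Tuba1b). Quantile normalization gives each rank the same value on every array, so the brightest genes share values and their normalized SD reflects changes of rank alone. Gja1 and Akr1c12, for example, both held 14.62 on some arrays.

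Protein synthesis genes were frequent among the brightest 100. The ribosomal protein list, chosen by symbol, had 74 genes on the array and 57 members, of which 16 were in the brightest 100. The symbol pattern also takes in ribosomal S6 kinases, which were 8 of the 74 and 3 of the 57. Of the 74, 12 were detected on 0 control arrays, some of them S6 kinases but also Rpl5, Rpl11 and Rps19. Detection depends on the probe, so a gene detected on 0 arrays is not shown to be absent. Rpl9 averaged 13.29 ± 0.10, Rps25 13.26 ± 0.24, Rpl21 12.87 ± 0.18 and Rps3a 12.79 ± 0.10. The list's median was 11.86, against 9.38 over all members, and its median SD 0.17 against 0.26. Rat 1 was the highest array for 30 of the 57 (52.6%), against 25.8% of all members. This went with the scaling: the list's median deviation on rat 1, minus that of all members, was 0.14 after quantile normalization and -0.01 with median scaling, where rat 14 was highest at 0.10.

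Respiratory chain and ATP synthase genes, with assembly factors such as Ndufaf2 that share their symbol pattern, had 60 members of 71 on the array. Their median was 10.49 and their median SD 0.19. In the brightest 100 there were 5. Atp5mg averaged 13.36 ± 0.09 and Uqcrb, of complex III, 12.54 ± 0.07. Chaperones had 9 members of 14 on the array, with a median of 12.16. Hsp90b1, Dnaja1, Hspd1 and Hspa5 were in the brightest 100, at 13.14 ± 0.12, 12.67 ± 0.18, 12.51 ± 0.18 and 12.33 ± 0.12. The stress-inducible Hspa1b was detected on 0 control arrays (a gene named after its values were seen). Glycolysis genes had 12 members of 16 on the array, with a median of 10.64. They were led by Pfkp, the platelet-type phosphofructokinase, at 12.02 ± 0.14, and Tpi1, triosephosphate isomerase, at 12.00 ± 0.20. Pgk1 and Ldha averaged 11.34 ± 0.38 and 11.68 ± 0.25.

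Proteasome genes had 35 members of 42 on the array, with a median of 10.74 and none in the brightest 100. Translation initiation and elongation genes, with regulators such as Eef2k that share their symbol pattern, had 37 members of 47 on the array. Their median was 10.04. Eif4a2, an RNA helicase subunit of the cap-binding complex, led them at 12.62 ± 0.07. Among cell cycle genes 12 of 23 on the array were members. Pcna, the replication clamp, averaged 11.73 ± 0.21, and Mcm7 and Mcm6, of the replicative helicase, 10.97 ± 0.07 and 10.48 ± 0.38.

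Oocyte genes made up a set of detected transcripts, none of them among the brightest 100. Of 48 listed oocyte genes 25 were on the array and 15 were members, with means from 8.21 to 11.22 and a median of 9.91. A further 5 were detected on some control arrays and 5 on 0. The 15 covered the zona pellucida, secreted factors, chromatin, stored mRNA and maternal factors. Quantile normalized signals are relative to the whole sample. In bulk complexes, oocyte number, RNA per oocyte and the amount of cumulus RNA cannot be told apart.

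Zp3, which encodes the sperm-binding zona pellucida glycoprotein, was the brightest, with values of 11.12, 11.97, 10.69, 11.51, 10.19 and 11.81 on rats 1, 2, 3, 13, 14 and 15. Rats 14 and 3 were the lowest and rats 2 and 15 the highest. Zp1, which cross-links zona filaments, averaged 8.21 ± 0.50. Gdf9, the growth factor through which the oocyte acts on cumulus cells, had 9.94, 10.44, 9.29, 10.20, 8.92 and 10.69 in the same rat order. Its partner Bmp15 had 10.26, 10.85, 9.51, 10.37, 9.57 and 10.85. The same rats were low for both factors.

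Of the oocyte's chromatin proteins, Npm2 (nucleoplasmin) averaged 11.17 ± 0.35, the tightest of the 15, and H1f8, the oocyte linker histone, 10.86 ± 0.53. Dppa3, a maternal factor that protects DNA methylation in mouse zygotes, averaged 9.96 ± 0.83. Genes that handle stored mRNA were present in Zar1 (10.44 ± 0.67), an RNA-binding maternal-effect protein, Cpeb1 (9.70 ± 0.54), which governs cytoplasmic polyadenylation, and Btg4 (8.76 ± 0.76), an adaptor for maternal mRNA decay in mouse. Padi6, needed for the cytoplasmic lattices of mouse oocytes, averaged 9.67 ± 0.76, and the NLR-family gene Nlrp9 10.16 ± 0.69. The meiotic kinase gene Aurkc stood at 8.80 ± 0.48 and Rfpl4a at 8.95 ± 0.73.

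Bcl2l10, a BCL2-family member of oocytes, varied most, with 10.04, 10.27, 8.58, 9.92, 7.61 and 10.53. Rat 14 was the lowest and rat 3 the next lowest. The median SD of the 15 oocyte genes was 0.68, against 0.26 over all members.

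The oocyte genes moved together from array to array. Their median deviation from the gene mean was 0.07, 0.61, -0.63, 0.29, -0.73 and 0.62 on rats 1, 2, 3, 13, 14 and 15. Rats 3 and 14 were the 2 lowest arrays for 14 of the 15 genes (93.3%), Zp1 being the exception, against 14.3% of all members. This pair was noticed in the values, so the count is a description. Gja4, whose connexin 37 forms the oocyte side of the junction in mouse, and Pde3a, the oocyte phosphodiesterase that degrades cyclic AMP, also had rats 3 and 14 lowest, at 8.43 and 8.29, and at 9.15 and 8.34. The cell cycle list showed the same pair lowest in 8 of 12 (66.7%).

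**Figure D2:**
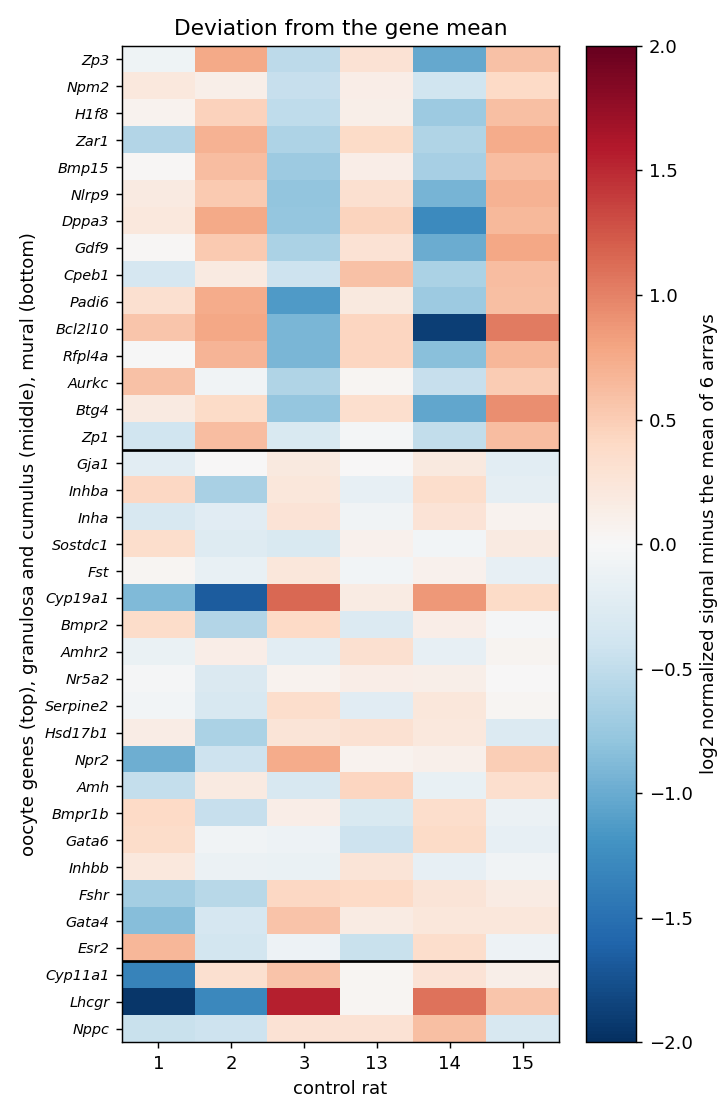
Log2 normalized signal minus the mean of the 6 control arrays for the oocyte, granulosa and cumulus, and mural granulosa genes that were members (rows, brightest first within each block), by control rat (columns). In the oocyte block rats 3 and 14 are blue in all rows, with Bcl2l10 on rat 14 at 7.61 against a mean of 9.49, while Cyp19a1 and Lhcgr are red on the same rats and blue on rats 1 and 2.

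The 250 bases before to 50 after the start of oocyte genes hold E-boxes, the letters CANNTG, which FIGLA binds in the zona pellucida promoters of mouse. RefSeq promoters of assembly GRCr8 were matched for 13 of the 15 oocyte members. On either strand CANNTG was found in 12 of the 13 (92.3%), and in 72.1% of 33469 promoters of the same length. CACGTG, a form of the E-box that the first count includes, was found in 2 (15.4%), Zp3 and Cpeb1, against 6.42%. TAATTG, a NOBOX-type motif, was found in 1 (7.69%), that of Rfpl4a, against 8.2%. Among granulosa and cumulus members CAAGGTCA, to which NR5A receptors bind, was found in 1 of 12 promoters (8.33%), that of Amh, against 1.52%. These are matches of letters only. The windows shown are the brightest oocyte gene, the secreted factor Gdf9, the oocyte gene with the widest spread among those matched (Dppa3) and the granulosa gene with a match, 5′ to 3′ on the gene's strand, with CANNTG in capitals in the first 3 and CAAGGTCA in the last.
Zp3 (chr12:26334077-26334376, - strand): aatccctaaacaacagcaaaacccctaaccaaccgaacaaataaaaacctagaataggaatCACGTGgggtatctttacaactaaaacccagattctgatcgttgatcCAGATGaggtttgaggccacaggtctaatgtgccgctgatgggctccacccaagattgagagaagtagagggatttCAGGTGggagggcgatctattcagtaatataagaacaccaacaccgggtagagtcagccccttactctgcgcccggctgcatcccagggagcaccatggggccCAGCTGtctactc
Gdf9 (chr10:38096301-38096600, + strand): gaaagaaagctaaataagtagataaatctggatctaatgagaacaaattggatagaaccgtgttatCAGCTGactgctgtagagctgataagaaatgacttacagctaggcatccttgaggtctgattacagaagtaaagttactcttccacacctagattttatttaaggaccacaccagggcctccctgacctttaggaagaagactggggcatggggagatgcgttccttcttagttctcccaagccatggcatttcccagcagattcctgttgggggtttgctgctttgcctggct
Dppa3 (chr4:157523176-157523475, + strand): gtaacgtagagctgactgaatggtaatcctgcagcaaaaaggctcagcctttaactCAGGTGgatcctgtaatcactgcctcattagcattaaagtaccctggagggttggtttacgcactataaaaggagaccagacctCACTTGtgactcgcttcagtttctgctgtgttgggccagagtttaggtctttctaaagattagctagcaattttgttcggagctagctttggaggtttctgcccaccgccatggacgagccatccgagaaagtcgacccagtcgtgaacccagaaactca
Amh (chr7:9559818-9560117, - strand): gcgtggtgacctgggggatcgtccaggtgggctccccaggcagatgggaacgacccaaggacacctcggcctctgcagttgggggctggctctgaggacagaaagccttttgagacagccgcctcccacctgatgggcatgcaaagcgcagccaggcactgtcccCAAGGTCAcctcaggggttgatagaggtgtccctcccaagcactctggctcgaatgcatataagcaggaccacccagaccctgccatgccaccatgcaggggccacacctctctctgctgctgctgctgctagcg
Zp3 holds 4 E-boxes, Gdf9 1 and Dppa3 2.

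Granulosa and cumulus genes were detected on every control array in most cases. Of 30 listed genes 23 were on the array and 19 were members, with a median of 10.34, a median SD of 0.35 and 3 in the brightest 100 (Gja1, Inhba and Inha). Slc38a3 and Kitlg were detected on 0 control arrays, and Igfbp5 and Wt1 on 1. Rats 3 and 14 were the 2 lowest for 2 of the 19 (10.5%) and the 2 highest for 5 (26.3%, against 15.7% of all members). The list's median deviation was -0.33 on rat 2, 0.23 on rat 3 and 0.21 on rat 14.

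Genes of activin and BMP ligands, antagonists and receptors were detected. Besides Inhba and Inha, Inhbb (the beta B subunit) averaged 9.44 ± 0.19 and Fst, the activin-binding follistatin, 11.32 ± 0.15. Sostdc1, a secreted BMP antagonist, reached 12.03 ± 0.26. The receptors Bmpr2 and Bmpr1b, through which BMP15 acts, averaged 11.00 ± 0.38 and 9.62 ± 0.35. Amh, the anti-Müllerian hormone of growing follicles, averaged 9.71 ± 0.37, and its receptor Amhr2 10.80 ± 0.21.

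Fshr, the receptor for follicle-stimulating hormone, had 8.53, 8.65, 9.62, 9.60, 9.47 and 9.37 on rats 1, 2, 3, 13, 14 and 15. Rats 1 and 2 were the lowest. Esr2, the oestrogen receptor of granulosa cells, averaged 8.27 ± 0.43, and the transcription factors Gata4, Gata6 and Nr5a2 8.54 ± 0.51, 9.58 ± 0.31 and 10.78 ± 0.16. Serpine2, a protease inhibitor of cumulus cells, averaged 10.34 ± 0.26. Npr2, the receptor guanylyl cyclase that keeps meiosis arrested, had 8.90, 9.46, 10.62, 9.95, 9.98 and 10.37, again lowest on rats 1 and 2. Its ligand gene Nppc, made mainly by mural cells, averaged 7.99 ± 0.45.

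Cyp19a1, the aromatase that makes oestradiol, varied most of the 19, with 10.37, 9.61, 12.41, 11.42, 12.12 and 11.64. Hsd17b1, which completes oestradiol synthesis, varied less, at 10.05 ± 0.37. Lhcgr, the luteinizing hormone receptor and a mural granulosa marker, had 8.23, 8.90, 11.74, 10.22, 11.27 and 10.74. For Cyp19a1 and Lhcgr alike rats 1 and 2 were the lowest and rats 3 and 14 the highest. Rats 3 and 14 combined the lowest oocyte genes with the highest values of both.

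Some steroid synthesis genes were lowest on rat 1. It was the lowest array for 4 of 9 members (44.4%, against 24.5% of all members), while Cyp19a1, Hsd17b1 and Nr5a2 were lowest on rat 2 and Hsd3b1 and Hsd3b2 on rat 13. Cyp11a1, the side-chain cleavage enzyme, held 11.39 on rat 1 and 12.78 to 13.30 on the other 5. Fdx1, its electron donor, held 11.40 on rat 1 and 12.52 to 13.01 elsewhere. The list's median deviation was -0.89 on rat 1 and -0.01 to 0.57 on the other arrays. Star, which carries cholesterol into mitochondria and is named after its values were seen, was detected on 4 arrays and was highest on rat 2, at 10.02.

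Few markers of other tissues, globins aside, were detected on every control array. Of theca and stroma markers 0 of 12 were members, of endothelium 0 of 7 and of oviduct epithelium 0 of 9, while leukocytes had 1 of 12, the Fc receptor subunit gene Fcer1g, at 7.77 ± 0.36. The pan-leukocyte gene Ptprc was detected on 0 arrays, while Cd74, also of the leukocyte list, was detected on 1. Of endothelium markers 3 of 7 were detected on at least 1 control array. These were Tek and Cldn5 on 3 arrays each and Vwf on 1, while Cdh5 was detected on 0. All 5 oviduct epithelium genes detected on any control array were highest on rat 1. Krt8, Krt19 and Cldn4 were detected on 1 array each, but Cdh1 on 3 and Epcam on 4. Of theca and stroma markers 6 of 12 were detected on at least 1 control array. Of these 3 were highest on rat 1 and 1 each on rats 2, 3 and 14. The collagen gene Col1a1, detected on 4 arrays, held 9.25 and 9.44 on rats 1 and 2 and at most 7.50 elsewhere. Col1a2 and Col3a1 were likewise highest on rats 1 and 2. Cyp17a1 of the same list went the other way, at 6.01 and 5.57 on rats 1 and 2. It was detected on 2 arrays and was highest on rats 14 and 3, at 8.14 and 7.57. The erythrocyte list had 4 members of 8 on the array, all globins, with median deviations from -0.71 on rat 14 to 0.84 on rat 15. These were Hba-a1 at 11.20 ± 0.89, Hba-a3 at 10.60 ± 0.35, Hbb at 10.55 ± 0.79 and Hbb-b1 at 9.36 ± 0.69, whose near-identical copies may share signal. A further globin gene, Hba-a2, averaged 6.50 and was detected on 1 array. The erythroid genes Alas2, Slc4a1 and Ahsp were detected on 0 arrays. The part of other tissues in the results was not tested.

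Among 2349 named genes detected on only 1 to 5 control arrays, those with the widest spread (named after their values were seen) were mostly high on rat 1 or rat 2. Cfap161 and Sntn, genes of motile cilia, held 10.10 and 9.67 on rat 1, where alone they were detected, and at most 5.93 and 5.86 elsewhere. Dynlrb2, a dynein light chain gene, likewise held 8.84 on rat 1 and at most 5.46 elsewhere. Krt8, an epithelial keratin, held 9.55 on rat 1 and at most 6.34 elsewhere. On rat 2 the complement gene C1s reached 11.37, with 9.23 on rat 1 and at most 6.89 on the other 4. Mgp and A2m, the matrix Gla protein and a protease inhibitor, were also highest on rat 2, at 9.91 and 9.53.

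**Figure D3:**
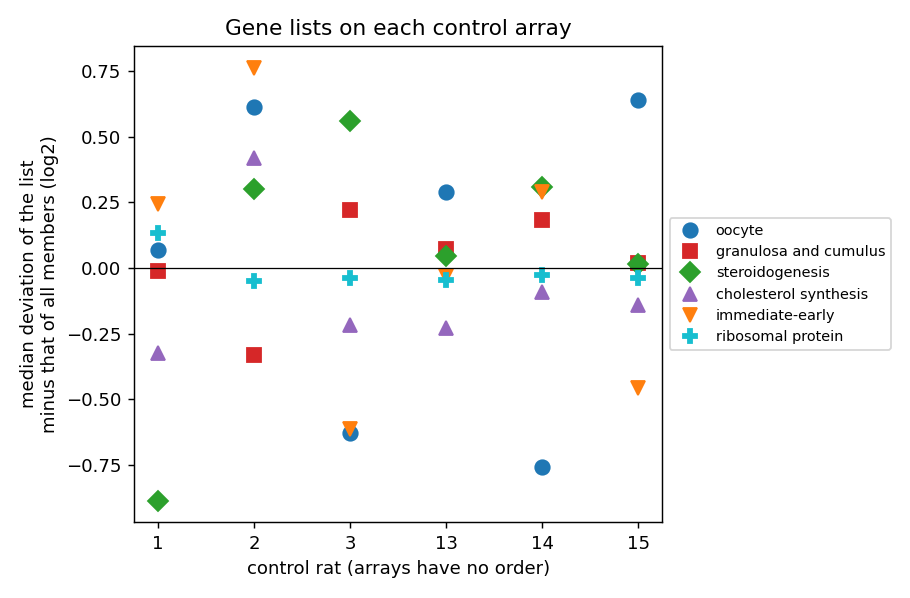
Median deviation of each gene list from its genes' means, minus the same over all members (log2), on each control rat. Oocyte genes lie lowest on rats 3 and 14, immediate-early and cholesterol synthesis genes highest on rat 2, steroidogenesis genes at -0.89 on rat 1, and ribosomal protein genes between -0.05 and 0.14.

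Most cholesterol synthesis and immediate-early members were highest on rat 2. Rat 2 was the highest array for 7 of 10 cholesterol members (70%) and 5 of 6 immediate-early members (83.3%), against 13.4% of all members. The immediate-early list had 22 genes on the array. Pmvk and Fdps were highest on rat 1, Fdft1 on rat 3 and the immediate-early gene Gadd45g on rat 14. Idi1, an isomerase of isoprenoid synthesis, held 11.11 on rat 2 and 8.27 to 8.82 on the other 5. Msmo1, a sterol demethylation enzyme, held 10.09 on rat 2 and at most 8.49 elsewhere. Sqle and Dhcr7, an early and a late enzyme of sterol synthesis, held 11.40 and 11.57 on rat 2, each the highest of its 6.

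Egr1, a transcription factor induced within minutes of many stimuli, held 12.29, 12.43, 10.44, 11.97, 12.31 and 11.42. Zfp36, which speeds the decay of cytokine mRNA, held 11.69, 13.26, 10.99, 11.09, 11.48 and 10.37. Adamts1, a protease induced in ovulating follicles, held 8.53, 10.65, 8.16, 7.22, 8.92 and 6.99. All 3 were highest on rat 2, and Egr1 was lowest on rat 3. The list for ovulation and cumulus expansion had 20 genes on the array. Of these 5 were members, 5 were detected on some control arrays and 10 on 0. Rat 2 was the highest array for 2 of the 5 members. Runx1, Cebpb and Tnfrsf12a were detected on 1 control array each and were highest on rat 2, at 7.675, 7.35 and 7.516. Of the effectors of cumulus expansion, Ptgs2, Has2, Areg and Ereg were detected on 0 control arrays. This does not show absence, since some ribosomal protein genes were also detected on 0. Vcan, the versican that Adamts1 cleaves, averaged 11.33 ± 0.24.

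Spread differed widely among the 3749 member genes. The SD over the 6 arrays had a median of 0.26 and ran from 0.01 to 1.52. It was under 0.2 for 1181 genes (31.5%), over 0.5 for 378 (10.1%) and over 1 for 14. The tightest genes above the median level were Abhd17c, a depalmitoylating enzyme, at 12.07 ± 0.01, Vrk3 at 10.23 ± 0.02, Tmed9 at 12.95 ± 0.03, Smad4, the common mediator of activin and BMP signals, at 12.25 ± 0.04, and Mafg at 12.86 ± 0.04. These SDs describe ranks after quantile normalization.

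**Figure D4:**
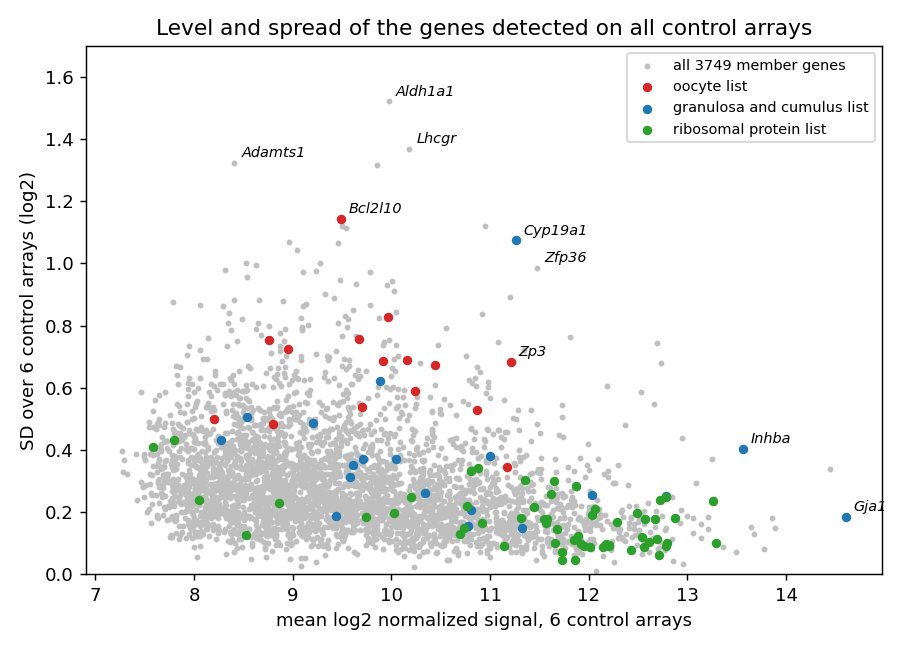
SD over the 6 control arrays against mean log2 normalized signal for the 3749 member genes, with 3 gene lists in colour. Oocyte genes (median SD 0.68) lie above ribosomal protein genes (median SD 0.17), and Aldh1a1 has the largest SD, 1.52.

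Aldh1a1, an enzyme of retinoic acid synthesis, varied most, with 11.98, 11.42, 9.61, 7.75, 9.70 and 9.39. Rats 1 and 2 were the highest and rat 13 the lowest. Lhcgr, Adamts1, Ccn1 and Bcl2l10 came next, with SDs of 1.37, 1.32, 1.32 and 1.14. The 20 most variable genes were then Gstm6l and Gstm7 (glutathione S-transferases), Tox (an HMG-box protein), Ackr3 (an atypical chemokine receptor), Cyp19a1, Idi1, Acsbg1 (an acyl-CoA synthetase), Pi16 (a peptidase inhibitor), S100a11 (a calcium-binding protein), Abcg1 (a sterol exporter), Enpep (aminopeptidase A), Zfp36, Msmo1, Tbc1d22b and Ifitm3 (an interferon-induced membrane protein). Their SDs lay between 0.97 and 1.12. Without rat 2 the list kept 11 of these 20, and with median scaling in place of quantile normalization 12.

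Most of these genes also varied within the hormone-treated groups, which the ranking did not use. Of the 20, 19 had an SD above the member median of each group in all 3 other groups, as had 933 of all 3749. The exception was Idi1, whose SD was 1.73 in GnRH and 0.07 in the hCG group. Their median SD was 1.07 in control, 1.10 in GnRH, 0.83 in GnRH+eCG and 0.43 in the hCG group, while that of all members was 0.26, 0.24, 0.21 and 0.19. Across the 3749 genes, which are not independent, the Spearman correlation of the control SD with that in the other groups was 0.482 (GnRH), 0.576 (GnRH+eCG) and 0.411 (hCG).

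**Figure D5:**
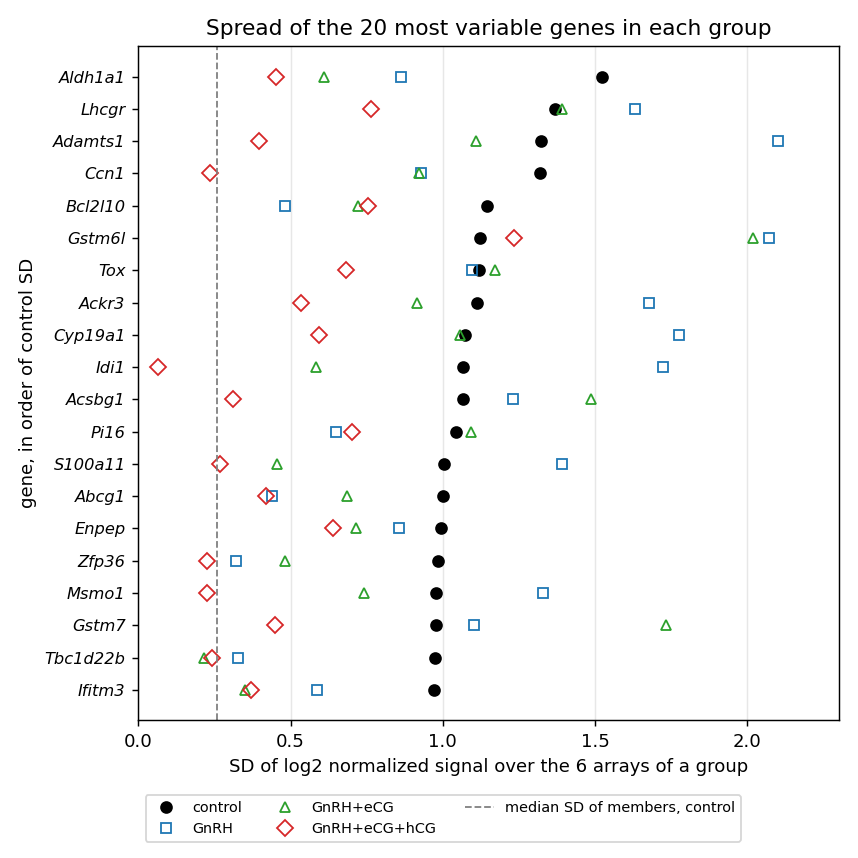
SD of log2 normalized signal over the 6 arrays of each group (symbols) for the 20 genes with the largest control SD, with the median control SD of all members, 0.26, as a dashed line. Lhcgr, Gstm6l and Cyp19a1 are spread widely in several groups, and Idi1 falls to 0.07 in the hCG group.

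The leading axis of variation among the arrays was carried by many of the same genes. Values were centred but not scaled, so genes with a large SD weigh most by construction. The first principal component over the members held 40.8% of the variance and the second 29.8%. Scores on the first were -13.7, -12.3, 24.0, -5.4, 15.7 and -8.2 on rats 1, 2, 3, 13, 14 and 15, so rats 3 and 14 lay apart from the other 4. Lhcgr, Tox, Gstm6l, Acsbg1 and Gstm7 had the largest positive weights. Bcl2l10, Olah (a fatty acid thioesterase), Ifitm3, Ccn1 and Sparc (a matrix protein) had the largest negative weights. On the second component rat 1 stood apart, at 24.4 against -12.3 to 4.2.

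Whether rats 13 to 15 differed from rats 1 to 3 was tested with limma over 7945 probes. Quantile normalization gives every array the same distribution, so the test cannot show the difference in median deposited signal between these rats. No probe passed an adjusted p of 0.05 (0 called, 0%), and the smallest adjusted p was 0.115. At an unadjusted p under 0.05 there were 484, with 397 given by chance. Aldh1a1 had a difference of -2.05, rats 13 to 15 being lower (SE 0.61, adjusted p = 0.314 by limma). Leaving out rat 3 gave 9 calls and rat 15 gave 2. Median scaling gave 165, of which 161 were higher, with the median of all tested probes itself shifted by 0.21.

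In the same fit the 3 hormone groups together had 213 probes (2.68%) that differed between rats 13 to 24 and rats 1 to 12, of which 138 were higher (1.74%) and 75 lower (0.944%). Among control members 124 (2.34%) were called. The control difference minus that of the other groups passed for 0 probes (limma). At an unadjusted p under 0.05 there were 177, with 397 given by chance. The test thus did not show that the difference between rat-number runs in control departed from that in the other groups.

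How the baseline genes fared elsewhere was read from comparisons without a control array. In the hCG group against GnRH+eCG, limma called 3205 of 7945 probes (40.3%), 1373 higher (17.3%) and 1832 lower (23.1%). Of the members 2042 (38.6%) were called, 756 higher (14.3%) and 1286 lower (24.3%). The 50 brightest genes gave 8 calls (16%), 7 of them lower, and 2 with median scaling. Sv2b, Ivns1abp, Taf15, Maged1 and Prkar2b of the 20 brightest fell, Ivns1abp by 0.74 (SE 0.13, adjusted p = 0.000133 by limma). The 50 most variable gave 19 calls (38%), 11 higher and 8 lower.

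All 15 oocyte members fell past the threshold in the hCG group, with a median difference of -1.37, against -0.06 over all members. Bcl2l10 fell by 1.95 (SE 0.44, adjusted p = 0.00129 by limma) and Zp3 by 1.48 (SE 0.30, adjusted p = 0.000451). All 15 stayed called with median scaling. The granulosa and cumulus list had 10 of 19 lower and 0 higher, against 24.3% of all members lower, and 9 lower with median scaling and 7 with all probes tested. The 10 included Sostdc1, which fell by 2.19 (SE 0.24), and Inhbb, which fell by 2.44 (SE 0.32). Gja1 (-0.33, SE 0.14, adjusted p = 0.061) and Inha (-0.05, SE 0.19, adjusted p = 0.866) did not pass in limma.

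Cholesterol synthesis genes had 4 of 10 higher and 0 lower, against 14.3% and 24.3% of all members, and 3 higher with median scaling and 2 with all probes tested. The 4 included Idi1, higher by 2.15 (SE 0.57, adjusted p = 0.00464 by limma). Cell cycle genes had 7 of 12 lower, with 5 under median scaling. Of ribosomal protein genes 2 of 57 were called, both higher. Of respiratory chain genes 16 of 60 were lower and 2 higher, a share near that of all members, and with median scaling 2 were lower and 1 higher, with a median of 0.03 in place of -0.09.

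In GnRH+eCG against GnRH, limma called 0 of 7945 probes (0%), and 423 had an unadjusted p under 0.05. The smallest adjusted p was 0.091. Gja1 averaged 14.61 ± 0.19 in control, 14.64 ± 0.20 in GnRH and 14.71 ± 0.17 in GnRH+eCG, and Zp3 11.22 ± 0.68, 10.71 ± 0.42 and 11.01 ± 0.65.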

How the data were processed

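RNA of cumulus-oocyte complexes was measured on 24 arrays with 1 colour, and 24 sample columns were used with 0 left out. Intensity values (linear scale) were deposited by the authors, who used BeadStudio per the submitters' processing notes. The sources used here give no version. The deposited detection score is a fraction, called a p-value per the file headers, which rose with signal on every array (Spearman at least 0.994) and was read as 1 minus the detection p. Of 22226 probes in each table, 21946 matched by identifier and the 280 in 1 table only were left out. The platform annotation gave 1 symbol to 13518 probes and none to 8428, and 13478 gene identifiers matched RefSeq.

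Signals of all 24 arrays were background corrected, quantile normalized and put on the log2 scale with neqc (offset 16) of limma 3.58.1 in R 4.3.3, and counts were made in Python 3.11.15. Tests covered the 7945 probes (36.2%) whose detection p was below 0.01 on 6 or more arrays, by lmFit and eBayes, with Benjamini-Hochberg adjustment over all of them at 0.05. The fit with rat-number runs left 16 residual degrees of freedom and the fit with 4 group means 20. On simulated arrays with 7945 probes, control rats 13 to 15 against 1 to 3 recovered 48% of changes of 1 and 92% of changes of 2 on the log2 scale. A gene was its probe with the highest mean control signal. Of 46 genes with several member probes, 23 had probes over 1 apart. Genes were named by rule: the 20 brightest, the 20 most variable, the 5 tightest above the median level, all detected oocyte and granulosa genes, up to 4 of each other list, 2 on either side of the detection rule, and 10 leading the first component. Any other gene was named after its values were seen. The members and lists were chosen with earlier results of these data known. Alternatives covered background correction, scaling, offset, filter, detection rule, variance model, rat-number runs and leaving out each control array. Groups follow the labels' treatment, and each array is a separate rat per the labels.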

Additional observations from a re-analysis of the deposited data

Results flagged for a closer look

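Of 123 named genes, 8 had 1 control array whose gap to the others exceeded Dixon's critical value for 6 samples. Chance would give about 6 among unselected, independent genes. Some of these genes were named for their spread on the same arrays, so no conclusion is drawn from the count. Rat 1 was the distant low value for Cyp11a1 (11.391, others from 12.777), Fdx1 (11.4, others from 12.52), Psme1 (11.367, others from 11.982) and Tbc1d22b (7.2, others from 9.06). Rat 2 was the distant high value for Idi1 (11.11, others up to 8.816) and Ldha (12.137, others up to 11.691), and the distant low value for Nr5a2 (10.486, others from 10.764). Rat 13 was the distant high value for Abhd17c (12.094, others up to 12.071).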

How the results depend on the processing

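Of 135 values recomputed under the alternatives, 125 were labelled unchanged, under loose rules. Most are counts, which have no direction. Counts and the share of the first component had to stay within a set ratio of the main value. Lists of 20 had to keep a set overlap, and list medians had to stay within the replicate spread. Member calls at the hCG step, for example, went from 2042 to 1364 with median scaling and were labelled unchanged. Outside the 135, median scaling turned the median hCG difference of the respiratory chain list from -0.091 to 0.026. It also turned the ribosomal protein list's deviation on rat 1 from 0.135 to -0.007. Members numbered 8490 at a detection score over 0.95 and 5305 to 6161 when each control array was left out. The 20 brightest kept 19 to 20, the 20 most variable 11 to 18 (11 without rat 2) and 12 with median scaling. The median of the oocyte list ran from 9.758 to 10.112, that of the granulosa and cumulus list from 10.271 to 10.407, and the share of the first component from 40.5 to 56.2 when an array was left out. For control rats 13 to 15 against 1 to 3, calls were 0 to 9 when an array was left out, 165 with median scaling and 1 with all probes tested. For the other groups the 213 calls became 2327 with median scaling (2290 higher and 37 lower, with the median of all tested probes shifted by 0.231) and 1872 with all probes tested (944 higher and 928 lower). The 50 brightest gave 2 calls at the hCG step with median scaling. The cause of these changes was not tested. List deviations by array under other scalings and the interaction without each control array (0 calls each time) were added after the data were seen. The oocyte list stayed lowest on rats 3 and 14 in each, at -0.563 and -0.676 with median scaling. No paired analysis was possible because the groups share no rat number. Signals near background and 1 array per rat limit what can be read of dim genes.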
